A study of Mus musculus with 3 samples.

Results

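The mitochondrial genome of the mouse gives rise to 37 annotated genes, and their RNA was followed here through 3 libraries of chromatin-associated RNA. The genes were taken by their symbols, which begin with mt- in the deposited tables, and they are 37 of 55536 mouse gene entries. By annotated biotype they comprise 13 mRNAs, 2 ribosomal RNAs (rRNAs) and 22 transfer RNAs (tRNAs). All 3 libraries belong to 1 group: primary macrophages grown from C57BL/6J bone marrow, given lipid A at 100 ng/ml for 120 min, from which the chromatin fraction was taken and its total RNA sequenced after removal of ribosomal RNA. Lipid A is the part of bacterial lipopolysaccharide that the receptor TLR4 recognises. No untreated or whole-cell library was analysed here, so the comparisons are between RNA classes, between libraries and between the 2 quantifiers whose tables were deposited. Age and sex of the animals were not collected, per the labels. Libraries began from unequal amounts of RNA, 1 µg in replicate 1, 250 ng in replicate 2 and 500 ng in replicate 3, and this cannot be told apart from replicate. The labels give the libraries a common donor and do not say whether they came from separate cultures, so the spread between these libraries, and any p-value that rests on it, may be technical.

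Mitochondrial DNA is a compact circle that is transcribed along nearly its whole length from either strand into long precursors. The tRNAs lie between most mRNAs and rRNAs, and the nucleases that cut them out (RNase P at the 5′ end, ELAC2 at the 3′ end) also release the neighbouring mRNAs and rRNAs. All mitochondrial mRNAs encode membrane subunits of the respiratory chain or of ATP synthase, and they are translated inside the organelle on ribosomes built around the mitochondrial rRNAs. Fragments of mitochondrial DNA have also been copied into nuclear chromosomes during evolution, and reads from a mitochondrial mRNA can be placed on such a copy when the sequences match.

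The layout of the genes follows this plan in the annotation (GENCODE M21, build mm10). The mRNAs cover 11403 nt in total, the rRNAs 2537 nt and the tRNAs 1501 nt, and single tRNAs are 59 to 75 nt long. Of 36 pairs of neighbouring genes, 34 overlap or lie at most 3 nt apart, and the largest gap is 32 nt. A tRNA lies between 10 of the 14 consecutive pairs of mRNAs and rRNAs. mt-Atp8 and mt-Atp6 share 43 nt, mt-Nd5 and the oppositely oriented mt-Nd6 share 14 nt, and mt-Nd4l and mt-Nd4 share 7 nt. The plus strand carries 12 mRNAs, both rRNAs and 14 tRNAs, while the minus strand carries mt-Nd6 and 8 tRNAs. The strand setting used in counting is not given in the sources used here, so reads from opposite strands of the same stretch cannot be told apart.

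Near-identical nuclear copies exist for 7 of the 13 mRNAs, and their sequences show how little separates a copy from its source. A copy was defined as an annotated nuclear transcript with at least 99% identity over at least 80% of its own length. Nuclear sequence outside annotated transcripts was not searched. The 7 copies are unprocessed pseudogenes in a single block of 4663 nt on the minus strand of chromosome 1 (chr1:24611535-24616197), and 5 of them are identical to their source over the whole alignment. Other annotated nuclear sequences that resemble a member reach at most 97.6% identity. Within the aligned stretch Gm28438 differs from mt-Nd3 at 1 base, T3C, and Gm29216 differs from mt-Co1 at 1 base, A1066T. The alignment covers 483 of the 492 bases of Gm29216, and positions are counted from 1 at the 5′ end of the mitochondrial transcript and the mitochondrial base is written before the position. The first 60 bases of mt-Nd3 and Gm28438, bases 1063 to 1123 of mt-Co1 with the matching stretch of Gm29216, and the first 60 bases of mt-Atp6 and Gm10925 are given in DNA letters from GENCODE M21 transcripts. Capitals mark the differing base, and the pair of mt-Atp6 has none.
mt-Nd3: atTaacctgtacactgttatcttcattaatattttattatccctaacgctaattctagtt
Gm28438: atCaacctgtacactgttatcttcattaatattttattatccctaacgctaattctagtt
mt-Co1: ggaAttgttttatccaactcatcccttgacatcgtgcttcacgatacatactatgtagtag
Gm29216: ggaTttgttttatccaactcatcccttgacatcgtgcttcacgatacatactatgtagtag
mt-Atp6: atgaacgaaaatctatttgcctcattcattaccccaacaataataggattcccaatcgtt
Gm10925: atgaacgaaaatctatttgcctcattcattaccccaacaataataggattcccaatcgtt

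The tRNAs on which the tRNA counts turned are shown so that their shortness can be seen. mt-Tp, mt-Ts1 and mt-Te carry proline, serine and glutamate and lie on the minus strand, and mt-Tt, the plus-strand threonine tRNA directly beside mt-Tp, is given for comparison. Capitals mark the anticodon, which begins at position 31 of each sequence.
mt-Tp: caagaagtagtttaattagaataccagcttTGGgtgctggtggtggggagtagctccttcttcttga
mt-Ts1: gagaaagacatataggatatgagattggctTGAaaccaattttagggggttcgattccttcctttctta
mt-Te: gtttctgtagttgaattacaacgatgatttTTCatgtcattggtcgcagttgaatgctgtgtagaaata
mt-Tt: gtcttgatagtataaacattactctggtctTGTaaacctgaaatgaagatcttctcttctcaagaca

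The gene tables held 19751051, 20372850 and 21984526 expected counts over gene entries in replicates 1, 2 and 3, where an expected count is a read total shared out among features that match a read. The other quantifier gave 30368008, 35411969 and 38777468 estimated counts. Macrophage markers were present, since all 10 of 10 passed the minimum mean count of 10 and their median level was 62.7, 117 and 32.4 TPM (a length-scaled level as deposited). Medians of the marker lists of T cells, B cells, neutrophils and fibroblasts were at most 0.46 TPM in any library. The highest single gene of these lists was Lck of the T cell list, at 2.45, 3.25 and 5.28 TPM. The other quantifier placed more counts on some of these genes, such as 283, 363 and 513 on Cd3d against 0, 1 and 1 expected counts. On others it placed few, such as 0, 1 and 0 on Trbc2.

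Mitochondrial transcripts were a small part of the chromatin RNA, and their share was several times higher in replicate 2 than in the other libraries. The 37 genes held 0.0416% of gene counts in replicate 1 (exact Clopper-Pearson 95% interval 0.0407 to 0.0425, for counting error only), 0.335% in replicate 2 (0.332 to 0.337) and 0.0356% in replicate 3 (0.0348 to 0.0364). The mean was 0.137% ± 0.171 (SD, n = 3), so the spread between libraries exceeded the mean. With the other quantifier the shares were 0.0347%, 0.270% and 0.0276% in replicates 1, 2 and 3. Replicates 1 and 3 were close to each other and replicate 2 stood apart in either quantifier.

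Nearly all of these counts lay on mRNAs. Expected counts of the 13 mRNAs summed to 7721, 66693 and 7430 in replicates 1, 2 and 3, which was at least 93.9% of mitochondrial counts in each library. The 2 rRNAs held 499, 1518 and 390 counts, and the tRNAs held none. Per kb of annotated length, mRNAs stood above rRNAs by 3.44-fold in replicate 1, 9.77-fold in replicate 2 and 4.24-fold in replicate 3. Estimated counts gave the same order with ratios of 1.82, 7.10 and 3.48 in replicates 1, 2 and 3. The libraries had been depleted of ribosomal RNA, per the labels, and whether that step also removed mitochondrial rRNA was not tested.

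**Figure D1:**
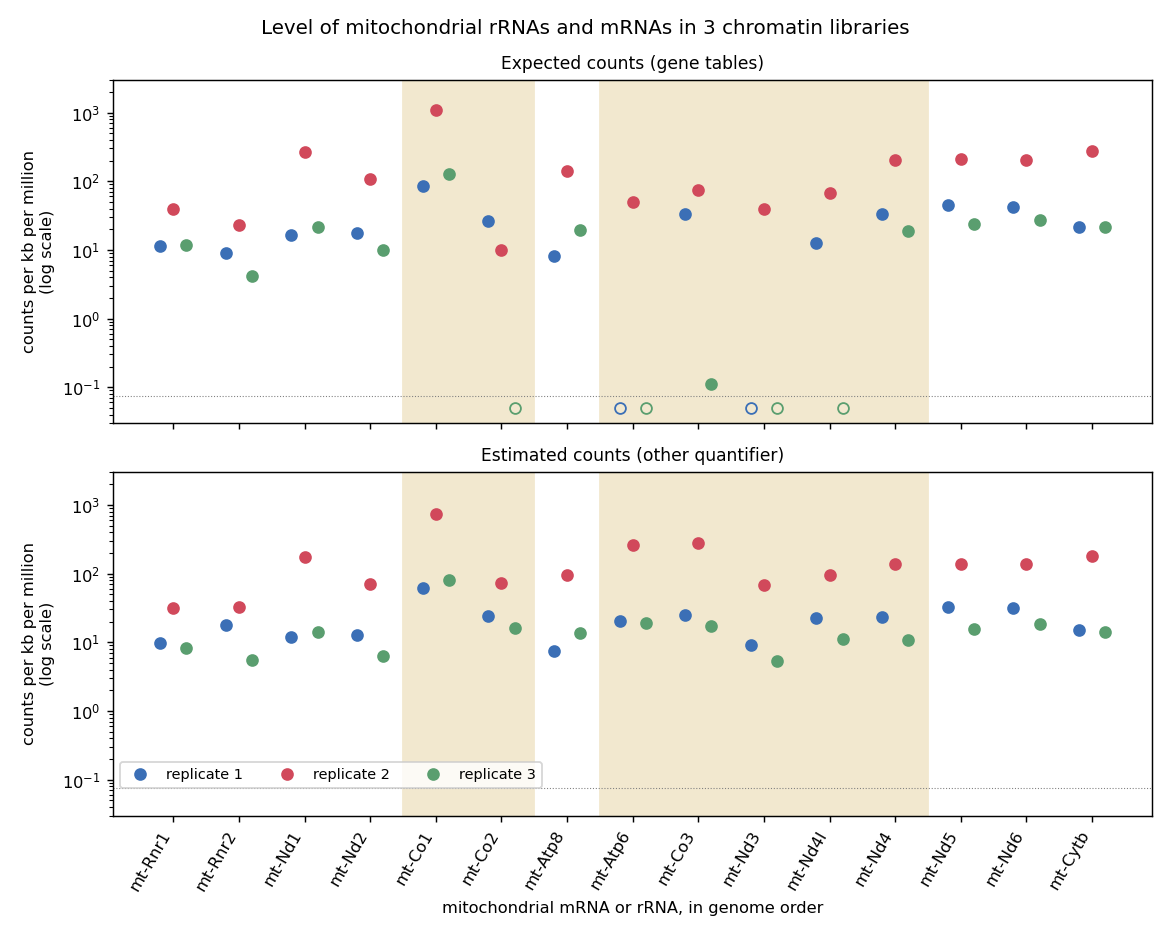
Level of each mitochondrial rRNA and mRNA in CPM per kb of annotated length (log axis; the axis label spells the unit out), with 1 point per library, from expected counts (upper panel) and estimated counts (lower panel), in genome order. Shading marks the 7 mRNAs with a near-identical nuclear copy, and open circles under the dotted line are values of 0, which occur only among shaded genes and only in the upper panel; outside the shading, replicate 2 is the highest library for every gene.

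Complex I, which passes electrons from NADH to ubiquinone, takes 7 of its core membrane subunits from this genome, and their mRNAs fell into 2 kinds by how they were counted. mt-Nd5 had 1624, 7787 and 954 expected counts in replicates 1, 2 and 3, mt-Nd4 had 893, 5807 and 571, and mt-Nd1 had 312, 5182 and 454. mt-Nd2 had 363, 2258 and 224 expected counts, and mt-Nd6, the only mRNA on the minus strand, had 437, 2142 and 312. Replicate 2 was the highest library for each of these 5 genes, and replicates 1 and 3 lay far below it. mt-Nd3 had 0, 276 and 0 expected counts and mt-Nd4l had 74.9, 406 and 0, although the other quantifier placed 95, 844 and 72 counts on mt-Nd3 and 205, 1016 and 129 on mt-Nd4l. Both of these short mRNAs have a nuclear copy on chromosome 1. So does mt-Nd4, over 63.6% of its length. In replicate 3 that copy of mt-Nd4 held 9.67% of the pair's expected counts and 21.2% of its estimated counts. In replicates 1 and 2 it held at most 0.418% of either.

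Cytochrome b, encoded by mt-Cytb, is the catalytic membrane subunit of complex III and its mRNA has no near-identical copy by the rule used. It had 491, 6489 and 550 expected counts and 531, 7261 and 624 estimated counts in replicates 1, 2 and 3. Replicates 1 and 3 were alike and replicate 2 was above both.

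Complex IV (cytochrome c oxidase) takes its 3 core subunits from this genome, and mt-Co1, the catalytic heme subunit, was the leading mitochondrial mRNA. mt-Co1 had 2626, 33755 and 4276 expected counts in replicates 1, 2 and 3, which was 34.0%, 50.6% and 57.6% of mitochondrial mRNA counts. Per kb it ranked first of 13 in every library, at 86.0, 1072 and 126 CPM per kb (counts relative to all gene counts of a library and to annotated length). mt-Co2, which encodes the subunit that receives electrons from cytochrome c, had 353, 141 and 0 expected counts, and mt-Co3 had 514, 1182 and 1.95. The order of libraries for mt-Co2 and mt-Co3 therefore departed from that of mt-Co1. Estimated counts were 507, 1761 and 433 for mt-Co2 and 592, 7677 and 517 for mt-Co3, with replicate 2 highest for both genes.

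ATP synthase (complex V) takes its proton-channel subunit from mt-Atp6 and a small membrane subunit from mt-Atp8, whose reading frames overlap. mt-Atp6 had 0, 684 and 0 expected counts and 428, 6206 and 497 estimated counts in replicates 1, 2 and 3. mt-Atp8, at 204 nt the shortest of the 13 mRNAs, had 33, 584 and 87 expected counts. Its deposited level was 46.4, 1483 and 189 TPM in replicates 1, 2 and 3, above the 1246 and 150 TPM of mt-Co1 in replicates 2 and 3. The effective length by which its counts were divided (the number of start positions left for a fragment) was 30.2, 18.7 and 20.9 nt, and it was 54.0, 55.5 and 52.5 nt with the other quantifier. By annotated length, mt-Atp8 stood at 8.19, 141 and 19.4 CPM per kb and ranked 11, 7 and 6 among the 13 mRNAs. With the counts on nuclear copies added to their source mRNAs, mt-Atp8 ranked 13, 11 and 10. The high rank of mt-Atp8 by TPM was thus not shared by its CPM per kb.

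The 2 rRNAs were likewise highest in replicate 2 by expected counts, over a narrower range than the mRNAs. mt-Rnr1, the RNA of the small mitochondrial ribosomal subunit, had 215, 778 and 247 expected counts in replicates 1, 2 and 3, or 11.4, 40.0 and 11.8 CPM per kb. mt-Rnr2, the RNA of the large subunit, had 284, 740 and 143 expected counts, or 9.09, 23.0 and 4.11 CPM per kb. The other quantifier placed 283, 1066 and 309 counts on mt-Rnr1 and 864, 1833 and 334 on mt-Rnr2. Per kb, mt-Rnr1 was above mt-Rnr2 in all 3 libraries by expected counts, whereas by estimated counts mt-Rnr2 was the higher in replicates 1 and 2.

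Between a mitochondrial mRNA and its nuclear copy, the division of counts differed by gene, by library and by quantifier. For mt-Co2 and its copy Gm28661, 26.2%, 98.3% and 100% of the pair's expected counts lay on the copy in replicates 1, 2 and 3. For mt-Co3 and Gm28437 the copy held 6.77%, 88.2% and 99.8%, for mt-Atp6 and Gm10925 it held 100%, 87.4% and 100%, and for mt-Nd3 and Gm28438 it held 100%, 72.3% and 100%. For mt-Nd4l and Gm10222 it held 37.1%, 43.5% and 100%. The copies of the 2 longer mRNAs took little, since Gm29216, which spans 31.3% of mt-Co1, held 3.37%, 0.978% and 0.441%, and Gm28439, which spans 63.6% of mt-Nd4, held 0%, 0% and 9.67%. Over all 7 pairs the copies held 14.6%, 35.5% and 31.8% of expected counts.

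The other quantifier placed far fewer counts on the same copies, with 1.21%, 15.9% and 15.1% over the 7 pairs. Its largest shares were those of Gm28661, at 81.4% in replicate 2 and 46.5% in replicate 3, and Gm28437, at 31.3% in replicate 2 and 49.9% in replicate 3. In replicate 1 it left at most 2.21% of any pair on the copy. The gene tables also carry a posterior SD of each count, which reflects how far reads could be moved between matching features. It was 142, 1098 and 285 counts for mt-Co3 and 111, 403 and 126 counts for mt-Co2 in replicates 1, 2 and 3, while it was 0 for mt-Nd1, mt-Nd5, mt-Nd6 and mt-Cytb in every library. Counts of the 5 pairs of mt-Co2, mt-Co3, mt-Atp6, mt-Nd3 and mt-Nd4l are therefore uncertain one by one, and their sums are given with them from here on.

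**Figure D2:**
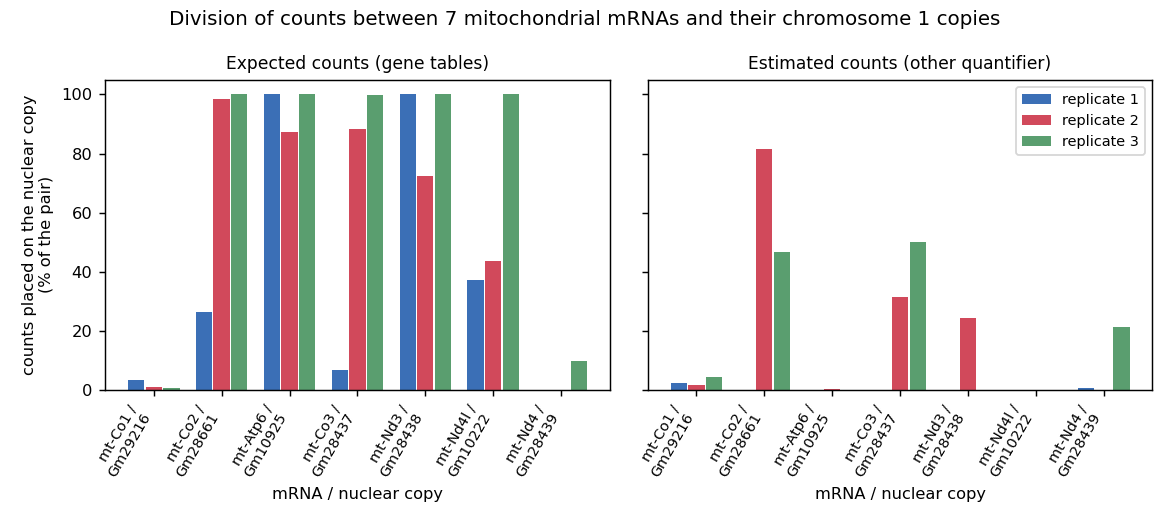
Share of each pair's counts that was placed on the nuclear copy (percent of mitochondrial mRNA plus copy), with 1 bar per library, from expected counts (left) and estimated counts (right). In expected counts 5 pairs reach 100% or nearly so in replicate 3, while in estimated counts no bar in replicate 1 exceeds 2.21%.

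Summing each copy with its source left replicate 2 the highest library for all 13 mRNAs, mt-Co2 included. The sums of expected counts were 479, 8509 and 684 for mt-Co2 in replicates 1, 2 and 3, 551, 9995 and 916 for mt-Co3, and 390, 5411 and 418 for mt-Atp6. They were 77, 998 and 62 for mt-Nd3 and 119, 718 and 100 for mt-Nd4l. The share of the 37 genes together with the copies was 0.0455%, 0.449% and 0.0458% of gene counts. With the copies, the ratio of mRNA to rRNA per kb was 3.78, 13.2 and 5.53 in expected counts, or 1.83, 8.03 and 3.91 in estimated counts. Where copy and source are identical, reads from the chromosome 1 block cannot be told apart from mitochondrial reads. The sums are therefore levels of pairs, and the part of either origin was not tested.

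Differences between quantifiers were tested with limma on the difference of log2 CPM within each library, expected minus estimated, over the 23361 genes that reached a mean of 10 counts in either quantifier. Both quantifiers read the same libraries, so this test measures how alike the difference was in 3 libraries. Of 17 members tested, 11 passed a Benjamini-Hochberg adjusted p of 0.05, against 62.7% of all genes tested. They comprised 8 that were higher in expected counts (13.2% of all genes were) and 3 that were lower (49.5% of all genes were). Higher and lower here refer to CPM, a count relative to the library total of its own quantifier. Those totals were smaller for expected counts. The counts themselves were lower in expected than in estimated counts for all 8, in every library. The median difference over all genes was -0.56 on the log2 scale. The count of 11 fell to 3 without replicate 2 and to 1 without replicate 3, and without replicate 1 no member was called lower.

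The 8 members that were higher lay close together. mt-Cytb differed by 0.59 ± 0.07 on the log2 scale (SE, n = 3, limma adjusted p = 0.00819), with per-library differences of 0.51, 0.64 and 0.64. mt-Nd1, mt-Nd2, mt-Nd4, mt-Nd5, mt-Nd6 and mt-Co1 differed by 0.51 to 0.62, and mt-Rnr1 by 0.36. The 3 that were lower were mt-Rnr2, at -0.63 ± 0.15 (SE, n = 3, limma adjusted p = 0.0424), the tRNA mt-Ts1, and mt-Atp6 at a limma adjusted p of 0.0497. The call of mt-Ts1 is no result, because its effective length is 0 nt in the gene tables and it entered the test through its estimated counts alone, and the same holds for the value of mt-Tp, which did not pass. The fitted value of mt-Atp6 rests on libraries with 0 expected counts and depends on the added prior of 0.5 counts, so no fold is given for it. Set against the median gene of each library, 9 members were higher and 2 lower of 11 called, where 39.3% of all genes were higher, 41.5% lower and 80.8% called. mt-Rnr2 was not called on that scale, at -0.07 (limma adjusted p = 0.772), and mt-Rnr1 remained higher, at 0.92.

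With copies summed, 14 of the 17 members passed and 12 were higher in expected counts, while the shares of all genes stayed at 62.7% and 13.2%. mt-Co2 then differed by 0.59, mt-Co3 by 0.60, mt-Atp6 by 0.55 and mt-Nd3 by 0.52 on the log2 scale, close to mt-Cytb, mt-Nd1, mt-Nd2 and mt-Nd5. mt-Nd4l differed by 0.20 (limma adjusted p = 0.349) and mt-Atp8 by 0.40 (limma adjusted p = 0.0608), and neither passed. mt-Atp8 has no annotated copy by the rule used, although the copy of mt-Atp6 takes in the 43 nt that both genes share. mt-Rnr2 was lower in expected counts, and the other such call was that of mt-Ts1. With copies summed and differences also set against the median gene, 15 members passed (80.9% of all genes), of which 14 were higher (39.4%). The remaining call was again that of mt-Ts1. All 13 mRNAs were among the 14, at 0.76 (mt-Nd4l) to 1.17 (mt-Co3).

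The tRNAs were seen only by the other quantifier, and mostly on the minus strand. In the gene tables all 22 tRNAs had 0 expected counts and an effective length of 0 nt in every library, so a count of 0 there sets no limit on their level. The labels give fragments of 250 to 400 nt, longer than any of these tRNAs. The other quantifier used effective lengths of 13.9 to 19.1 nt and placed 38, 179 and 12 counts on tRNAs in replicates 1, 2 and 3, which were spread over 19 of the 22 genes.

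The 8 minus-strand tRNAs held 31, 169 and 10 of these counts in replicates 1, 2 and 3, and the 14 plus-strand tRNAs held 7, 10 and 2. The minus-strand share was 81.6%, 94.4% and 83.3%, whereas these genes make up 36.6% of tRNA length. The strand setting used in counting is not given, so these shares are by annotated strand and not by strand of the reads. mt-Tp had 15, 84 and 1 counts, and mt-Ts1 had 3, 42 and 5. mt-Te, which adjoins mt-Nd6 on the minus strand and was chosen after its values were seen, had 3, 23 and 1. Together mt-Tp, mt-Ts1 and mt-Te held 55.3%, 83.2% and 58.3% of tRNA counts in replicates 1, 2 and 3. The other minus-strand tRNAs held 33 counts over all libraries, against 19 for the plus-strand tRNAs. No plus-strand tRNA exceeded 3 counts in any library, and mt-Tt, the neighbour of mt-Tp, had 0 in all 3. mt-Tf and mt-Ti, which adjoin mt-Rnr1 and mt-Nd1, were the other tRNAs with no count. The tRNAs not named here had at most 9 counts in any library.

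**Figure D3:**
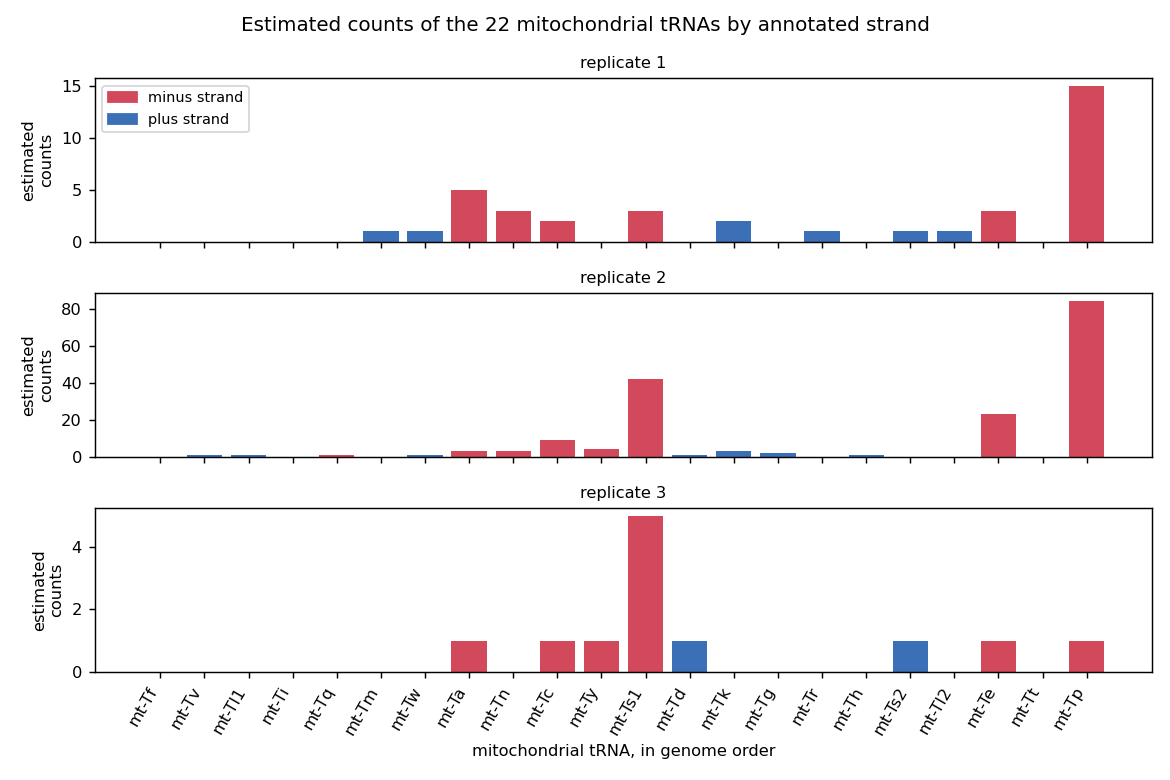
Estimated counts of the 22 mitochondrial tRNAs in genome order, with 1 panel per library and its own vertical scale; colour gives the annotated strand. Minus-strand tRNAs hold the tallest bars in every panel, up to 84 counts for mt-Tp in replicate 2, and no plus-strand bar exceeds 3 counts.

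Differences between libraries were tested for each gene by a chi-square test of rounded expected counts with TMM factors from edgeR, which sets the libraries against counting error only. All 15 members with a mean count of at least 10 passed an adjusted p of 0.05, the largest being 2.73e-109 for mt-Co2 (chi-square, Benjamini-Hochberg over 14200 genes), against 68.8% of all genes tested. mt-Atp6 and mt-Nd3, with 0 counts in replicates 1 and 3, reached that mean through replicate 2 alone, so they had to pass. The test takes the placement of counts as given, although that of mt-Co2 was uncertain. With copies summed all 15 passed again, the largest adjusted p being 3.34e-110 for mt-Rnr1 (chi-square), against 68.8% of all genes. The other quantifier called 17 of 17 members, against 58.3% of its 23319 genes, and mt-Tp and mt-Ts1 reached the minimum mean only through replicate 2. The remaining members, which were tRNAs, had too few counts to be tested.

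Size was described by counting genes at least 2-fold above both other libraries. In replicate 2 this held for 14 of the 15 members, against 5.18% of all genes. Of these, mt-Atp6 and mt-Nd3 had 0 counts in the other libraries and reached the minimum mean count through replicate 2 alone, so they had to meet the rule. In replicate 1 it held for 1 member, mt-Co2, against 2.14%, and in replicate 3 for 0, against 1.32%. With copies summed it held for 15 of 15 in replicate 2 (5.14% of all genes), for 0 in replicate 1 (2.13%) and for 0 in replicate 3 (1.32%). With the other quantifier it held for 16 of 17 in replicate 2 (1.54% of all genes), mt-Rnr2 being the exception, and for 0 in replicate 1 (2.63%) and replicate 3 (0.759%). Of those 16, mt-Tp and mt-Ts1 reached the minimum mean only through replicate 2.

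Within replicate 2 the excess was larger for mRNAs than for either rRNA. With copies summed, mRNAs stood above the mean of the other libraries by 2.56 (mt-Nd6) to 3.92 (mt-Co2) on the log2 scale of TMM-scaled CPM, with a median of 3.46, or 11.0-fold. mt-Rnr1 stood 1.78 above and mt-Rnr2 1.90 above, or 3.43-fold and 3.73-fold. The median over all genes tested was 0.08. By estimated counts the tRNAs mt-Ts1 and mt-Tp, which the filter chose through replicate 2, stood 3.21 and 3.99 above. The difference of both rRNAs was thus below that of every mRNA, in these 3 libraries. Among mRNAs, mt-Nd6, mt-Nd5, mt-Nd4l, mt-Nd4 and mt-Nd2, all of complex I, were the 5 lowest at 2.56 to 3.01, while mt-Nd1 and mt-Nd3 of the same complex stood at 3.81 and 3.87.

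Nuclear gene lists measured in the same libraries showed what else was high in replicate 2. All 7 of 7 mRNAs that are abundant in cytoplasm were at least 2-fold above both other libraries, with summed levels of 1012, 4461 and 929 TPM in replicates 1, 2 and 3, and 6 of 7 were with the other quantifier. Fth1, the ferritin heavy chain, had 179, 1164 and 197 TPM, and Actb, cytoplasmic actin, had 343, 792 and 339. Cytosolic ribosomal protein genes met the rule in 61 of 85, or in 29 of 84 with the other quantifier. That list was taken by symbol, so it also holds entries such as Rpl10-ps3 and Rps19bp1. Over all genes tested the rule was met by 5.18%, or by 1.54% with the other quantifier. Lyz2, the macrophage lysozyme, had 88.9, 873 and 39.0 TPM, and 2 of 10 macrophage markers met the rule. The part of cytoplasmic RNA, of the starting amount or of any other difference of replicate 2 in the mitochondrial values was not tested.

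Nuclear genes that serve mitochondria were read by the same rule. Nuclear-encoded subunits of the respiratory chain and ATP synthase met the rule in 14 of 38 genes (7 of 38 with the other quantifier), with a median difference of 0.83 on the log2 scale. Among them Atp5b, of the ATP synthase catalytic core, had 34.5, 77.7 and 59.9 TPM in replicates 1, 2 and 3. Mitochondrial ribosomal protein genes met it in 6 of 77, at a median of 0.36, and in 4 of 78 with the other quantifier. Factors of mitochondrial RNA processing and decay met it in 1 of 23, at a median of 0.18, and in 0 of 23 with the other quantifier. By expected counts the shares of the ribosomal protein list and the RNA processing list lay near the background of 5.18% of all genes. The share of respiratory chain and ATP synthase subunits lay above that background. With the other quantifier the background was 1.54%, and the shares of these subunits and of mitochondrial ribosomal proteins were higher. Pnpt1, the mitochondrial polynucleotide phosphorylase, had 26.3, 30.0 and 40.1 TPM. None of 22 genes for charging mitochondrial tRNAs, mostly synthetases, met it. Nor did any of 13 factors of mitochondrial transcription and replication, or any of 8 nuclear-retained RNAs. The median differences of these 3 lists were 0.16, 0.06 and -0.10. Rn7sk, the small nuclear RNA that holds the elongation factor P-TEFb inactive and the highest nuclear-retained RNA by level, had 9257, 31917 and 15409 TPM, and stood 1.05 above on the log2 scale. The summed level of the nuclear-retained list was 19178, 43430 and 31196 TPM in replicates 1, 2 and 3, and Rn7sk made up most of the sum in replicate 2. Malat1, the next highest of the list, had 7775, 9690 and 13784 TPM and was highest in replicate 3.

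**Figure D4:**
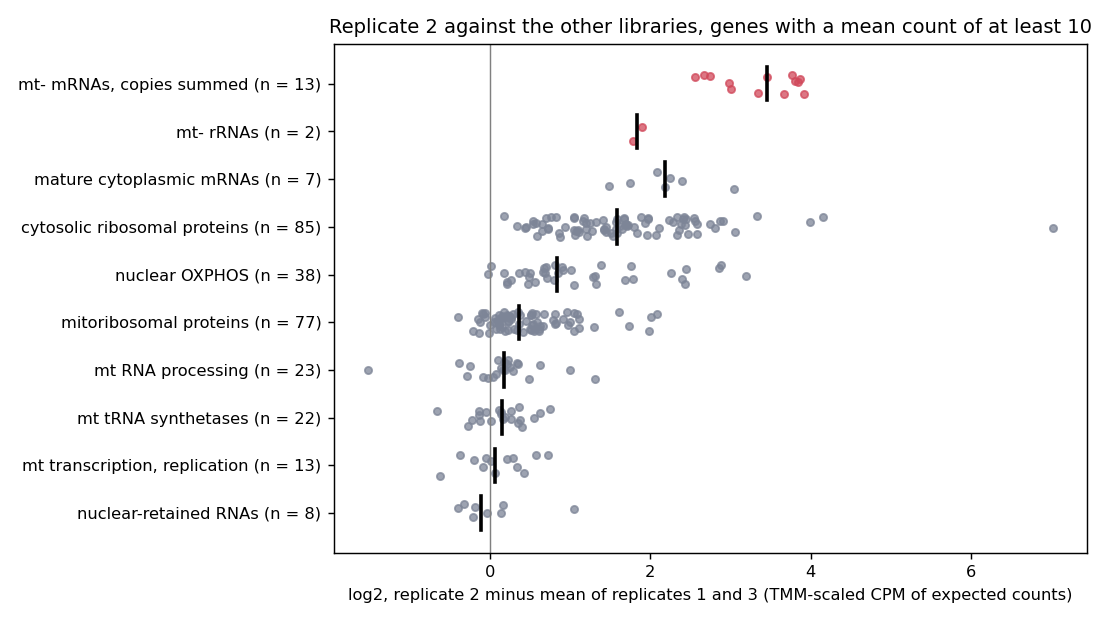
Difference of replicate 2 from the mean of replicates 1 and 3 on the log2 scale of TMM-scaled CPM of expected counts, with 1 point per gene and a bar at each group's median; the vertical scatter within a row carries no meaning. With copies summed, the mitochondrial mRNAs lie between 2.56 and 3.92 and the rRNAs at 1.78 and 1.90. The median of mRNAs abundant in cytoplasm is 2.18, above both rRNAs, and that of cytosolic ribosomal proteins is 1.58. The medians of nuclear-retained RNAs and of factors of mitochondrial transcription and replication are -0.10 and 0.06.

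Replicates 1 and 3 had like shares of mitochondrial RNA, and their make-up differed. With copies summed and replicate 2 left out, 12 of 15 members passed the chi-square test, against 54.7% of all genes, of which 9 were higher in replicate 1 and 3 were lower. mt-Rnr2 was higher in replicate 1 by 1.41 on the log2 scale, mt-Nd5 by 1.19, mt-Nd2 by 1.12, mt-Nd4 by 0.92 and mt-Nd6 by 0.91. mt-Atp8, mt-Co3 and mt-Co1 were lower in replicate 1, at -0.97, -0.31 and -0.24. The median over all genes was -0.06, and -0.32 when library totals replaced TMM factors. With library totals mt-Cytb, at 0.26 with TMM factors, had -0.01, and the other 11 called members kept their sign. With the other quantifier mt-Co1 and mt-Co3 stood at 0.21 and 0.16, opposite in sign to their expected counts, so the direction of these 2 depends on the quantifier.

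The same contrast appears in shares of mitochondrial mRNA counts, which no scaling of libraries can move. With copies summed, mt-Nd5 made up 19.1%, 8.66% and 9.85% of mitochondrial mRNA counts in replicates 1, 2 and 3, and mt-Nd4 made up 10.5%, 6.45% and 6.52%. mt-Co1 made up 32.0%, 37.9% and 44.3%, and mt-Co3 6.49%, 11.1% and 9.46%. Estimated counts gave 18.9%, 8.57% and 9.71% for mt-Nd5 and 31.9%, 39.2% and 44.7% for mt-Co1. Replicate 1 thus had the highest share of mt-Nd5 and the lowest of mt-Co1 with either quantifier, with 1 library on each side of the contrast and no replicate of it.

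**Figure D5:**
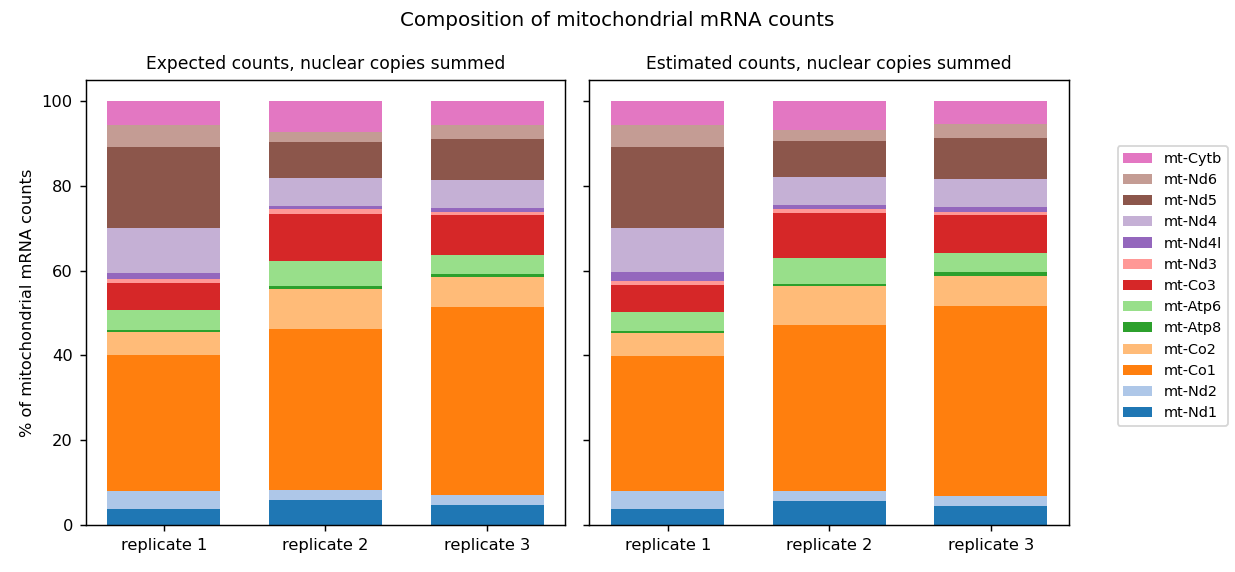
Share of each mRNA in mitochondrial mRNA counts (percent), with nuclear copies summed with their source, for each library, from expected counts (left) and estimated counts (right). The panels are alike, with mt-Co1 between 31.9% and 44.7% and mt-Nd5 largest in replicate 1.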

How the data were processed

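Total RNA of the chromatin fraction was sequenced in 3 libraries of 1 group, placed by the replicate numbers in the labels. The authors deposited gene tables of expected counts and TPM, in the column layout of RSEM, and transcript tables of estimated counts and TPM, in the layout of kallisto, made on mm10 with GENCODE M21 per the deposited notes. No source used here gives program versions or a strand setting. Estimated counts were summed per gene, for 55450 genes. Entries without a mouse gene held 0.845%, 0.282% and 0.179% of expected counts and were left out. Counts were rounded for the chi-square test. TMM factors came from edgeR 4.0.16 and the quantifier test from limma 3.58.1, with a prior of 0.5 counts, a minimum mean count of 10 and Benjamini-Hochberg adjustment over all genes. Nuclear copies were sought with blastn 2.17.0 among annotated transcripts. Summing them was chosen after seeing the data. The quantifier test assumed that the 3 within-library differences vary alike.

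Data for the test between libraries were simulated with counting error alone, which that test assumes. Recovery was 58% for changes of 1.5-fold in a single library and 97% for changes of 3-fold, with 7 false calls among 14200 genes. For the test between quantifiers, every simulated gene had the same SD, the median over genes. There 100% of genes shifted by 1 or by 3 on the log2 scale were recovered, with 6 false calls among 23361. Members with a wider spread are not covered, such as mt-Co2, which was not called at -3.87 ± 2.13 (SE, n = 3). Smaller shifts, such as those of most members called, were not simulated.

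Every member is accounted for: mRNAs and rRNAs are named with their values, tRNAs where their mean count was at least 10 in either quantifier or where they adjoin a named gene and are discussed, the others by range, and of nuclear lists at most the 2 highest and 1 lowest by mean TPM. Members and lists were chosen with earlier results of these data known. Alternatives were DESeq2 1.42.0 size factors, library totals, other priors and filters, the TPM scale, centring, the other quantifier and leaving out each replicate.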

Additional observations from a re-analysis of the deposited data

How the results depend on the processing

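Every member tested differed between libraries under DESeq2 size factors, library totals, no minimum count, the other quantifier and copies summed. Without replicate 2, 11 members did, while mt-Atp6 and mt-Nd3, with 0 expected counts in replicates 1 and 3, were not tested. The count of members at least 2-fold above both others in replicate 2 stayed between 13 (DESeq2 size factors) and 16 (other quantifier). The single such member in replicate 1 (mt-Co2) became 0 with the other quantifier and with copies summed. The tRNA share, 0 in expected counts, was 0.000221% with the other quantifier. The count of 11 members differing between quantifiers was the least stable. It was 7 on the log2(TPM + 0.1) scale (1 higher and 6 lower in expected counts), 7 with no minimum count (0 lower), and 1 to 8 when a replicate was left out (0 to 8 higher, 0 to 3 lower). Without replicate 3 it was 1, and without replicate 2 it was 3. With copies summed and differences centred on the median gene, 14 were higher and 1 lower. The direction turned with copies summed for mt-Co2 (0.59, and 1.15 when also centred), mt-Atp6 (0.55 and 1.12), mt-Co3 (0.60 and 1.17), mt-Nd3 (0.52 and 1.09) and mt-Nd4l (0.20 and 0.76). For these the alternative itself adds the counts on the copy, whatever their origin, and for the others the cause was not tested. No paired analysis was possible because there is 1 group.

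With 3 libraries and no contrast of conditions, nothing here speaks of lipid A. Counts of tRNAs were few, and intervals take in counting error alone.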
